A study of Carica papaya with 12 samples.

Results

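Hermaphrodite flower buds of papaya (Carica papaya) were compared between 2 lengths, 7–12 mm and 1–6 mm. The comparison rests on 4 of the 12 RNA-seq libraries of the series, 2 of each bud size, all from untreated plants of the cultivar SunUp, and 19339 of the 27689 genes in the files had enough counts to be tested. The labels place the smaller buds before meiosis and the larger buds after it. The other 8 libraries are of female and male buds of AU9 at the same sizes, so that sex and cultivar cannot be told apart between hermaphrodites and either of them. The study describes hermaphrodite buds as larger than male ones, so equal length need not mean equal stage between the sexes. Libraries were paired by replicate number, which stands for the sequencing platform, single-end reads of a HiSeq2000 for replicate 1 and paired-end reads of a HiSeq2500 for replicate 2. The study calls its replicates biological. How many plants or buds went into a library is not given in the sources used here, and a bud holds sepals, petals, stamens and a carpel together.

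Papaya hermaphrodites carry stamens and a functional pistil in the same flower. In an anther, the innermost wall layer, the tapetum, feeds the developing pollen, and in Arabidopsis a relay of transcription factors runs from SPOROCYTELESS/NOZZLE (SPL/NZZ), which starts the sporogenous cells, through DYSFUNCTIONAL TAPETUM 1 (DYT), TDF1 and ABORTED MICROSPORES (AMS) to MALE STERILITY 1 (MS1). DYT acts early in the tapetum and MS1 late. Around the anther, the other floral organs change from growth by cell division to growth by cell expansion as a bud lengthens.

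In the order of replicates 1 and 2, which holds for every pair of values below, the smaller hermaphrodite buds gave totals of 14859199 and 4520811 counts and the larger ones 16344040 and 8072694, while the other 8 libraries held 6593411 to 16564137. Hermaphrodite 1–6 mm replicate 2 had the smallest total of the series, and the study's own table gives it the highest share of unaligned reads, followed by male 1–6 mm replicate 2. In this library the unnamed gene evm.model.supercontig_2112.2 alone held 122728 counts, 2.71% of the total, against 0.0171 to 0.0338% in the other 3 hermaphrodite libraries and 0.686% in male 1–6 mm replicate 2. Another 5 genes were likewise over 10 times higher there than in each of the other hermaphrodite libraries. All 6 were also over 4 times higher in male 1–6 mm replicate 2 than in male 1–6 mm replicate 1. Of these 6 genes, 4 were called lower in the larger hermaphrodite buds. The main counts below are also given without hermaphrodite 1–6 mm replicate 2. The petal and stamen identity genes AP3 and PI and the carpel gene CRABS CLAW were detected in all 4 libraries. Of the markers of cell types, the 9 stamen genes, AP3 and PI among them, summed to 1313 and 1585 CPM (counts scaled to 1e+06 of the normalized library total) in the smaller buds. In the larger buds they summed to 2565 and 2247, where 3 passed as higher, 1 as lower and 5 did not pass, with 1 of the 9, CpMS1, at 0 in a library. The same 9 genes summed to 326 to 377 CPM in the female libraries, whose flowers have no stamens, so the sum is not of stamens alone. The 6 genes of dividing cells summed to 389 and 392 CPM in the smaller buds and to 237 and 202 in the larger, and 5 of them passed as lower. The 4 genes of meristem and primordia summed to 101 and 83.5 CPM and to 77.7 and 63.8 (1 higher, 2 lower). The light and clock genes HY5, GIGANTEA and GIGANTEA-like summed to 602 and 506 and to 669 and 729 (1 higher, 1 lower). These 3 had been set down as genes of green tissue but mark no cell type. The part of these cell types in the results below was not tested. The carpel gene stood at 23.8 and 27.2 CPM and at 25.3 and 27.9. In whole buds, a change in the number of cells of a type and a change in the RNA of each cell cannot be told apart.

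As hermaphrodite buds lengthened, more genes rose than fell. At 7–12 mm, 559 genes were higher and 291 were lower than at 1–6 mm, 850 in all, which is 4.40% of the tested genes (2.89% higher and 1.50% lower; edgeR's quasi-likelihood test, adjusted p under 0.05 and over 2-fold, which is what "called" means below). The rises were also larger, with a median size of 2.12 on the log2 scale against 1.37 for the falls. Among the rising genes, 300 rose over 4-fold, 185 over 8-fold and 94 over 32-fold, against 64, 32 and 16 of the falling genes. Rising genes took 0.944 and 0.974% of the counts in the smaller buds and 4.27 and 4.73% in the larger, and falling genes 0.902 and 0.890% and then 0.330 and 0.309%. The 10 most abundant rising genes held 30.6 and 33.8% of the CPM of all rising genes in the larger buds. These shares describe the genes that were called and are no separate test.

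For the called genes the direction was nearly always the same within each platform. Of the 850 genes, 841 changed the same way in replicate 1 and in replicate 2, and 622 changed over 2-fold in both (CPM + 0.2). The shares of all tested genes that did so were not counted. For 836 the libraries of both sizes did not overlap, against 45.0% of all tested genes. The genes were called on these same libraries, so such agreement was favoured by the choice and is no separate test. With adjusted p alone, 2084 genes (10.8%) passed, 1171 higher (6.06%) and 913 lower (4.72%). Genes that passed in this way but changed less than 2-fold are named as such below. The median log2 fold change of all tested genes was -0.0026. Without hermaphrodite 1–6 mm replicate 2 the count was 691, of which 604 were among the 850. Without hermaphrodite 1–6 mm replicate 1, which leaves that library as the only one of its size, it was 264.

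The change had its extremes in genes that went from almost no counts to many. With at least 10 counts in both larger libraries and at most 3 over both smaller ones, 78 genes were on at 7–12 mm, and 72 of them were among the called genes. The reverse pattern was found in 4 genes, all called. The smaller size holds the shallowest library, which makes the first pattern easier to meet than the second, and with all libraries thinned to the same total the counts were 61 and 19. The 78 genes together had 47 and 25 counts in the smaller buds and 13900 and 9309 in the larger. A single gene among them had 22 to 4250 counts over both larger libraries (median 93), and 33 of the 78 had no count at all in the smaller buds. CpMS1, the papaya gene related to MS1, was the most abundant. With fewer libraries the rule was easier to meet. It found 270 genes on and 10 off without hermaphrodite 1–6 mm replicate 1, 116 and 25 without hermaphrodite 1–6 mm replicate 2, 149 and 23 without hermaphrodite 7–12 mm replicate 1, and 117 and 9 without hermaphrodite 7–12 mm replicate 2.

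Male and female libraries took no part in choosing these 78 genes. In males, 68 of the 78 (87.2%) had at least 10 counts in both libraries of 7–12 mm, which is near the 90.2% of all tested genes, and 35 had over 3 counts over the male libraries of 1–6 mm, as did 99.1% of all tested genes. By the same rule 86 genes were on in males, and 38 were on in both sexes, 48.7% of the hermaphrodite genes and 44.2% of the male ones, beside 0.434% of all tested genes that were on in males. In females, 55 of the 78 genes (70.5%) had at most 3 counts over all 4 libraries, against 1.19% of all tested genes, and none of the 4 genes that were on in females by the rule was among them. Summed over the 78 genes, larger hermaphrodite buds had 870 and 1171 CPM and larger male buds 1707 and 1547. Smaller hermaphrodite buds had 3.05 and 5.61 CPM and smaller male buds 128 and 38.2, where the low hermaphrodite values were set by the rule that chose the genes. Exons of 14 of the 78 genes overlap another gene model.

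**Figure D1:**
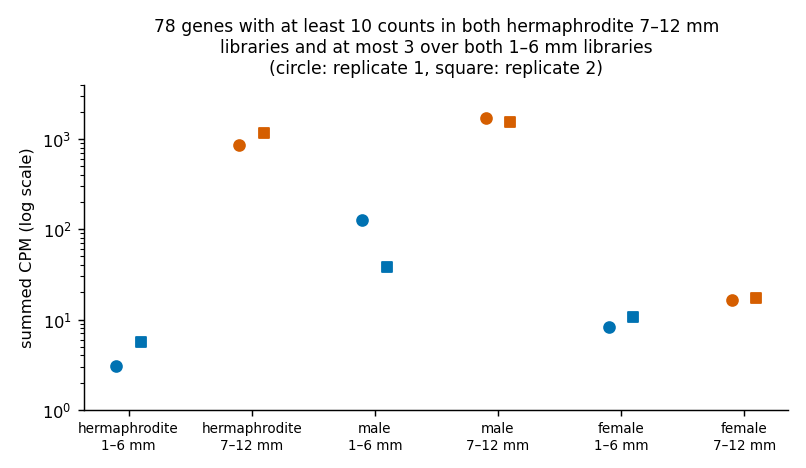
Summed CPM (log scale) in each of the 12 libraries of the 78 genes with at least 10 counts in both hermaphrodite libraries of 7–12 mm and at most 3 over both of 1–6 mm. The genes were chosen on the 4 hermaphrodite libraries, and the male libraries of 7–12 mm reach 1707 and 1547 CPM while no female library exceeds 17.2.

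The genes with the largest changes carry no name in the files. The gene evm.model.supercontig_12.174 (scaffold scf7180000007829 of the PacBio assembly, 93872 to 95709, minus strand) had 0 and 0 CPM in the smaller buds and 37.2 and 36.6 in the larger. It was at least 245-fold higher in the larger buds, against 3 counts over the group (edgeR adjusted p = 0.0167), and the call was lost without hermaphrodite 1–6 mm replicate 1, 7–12 mm replicate 1 or 7–12 mm replicate 2 (adjusted p of 0.136, 0.0575 and 0.0644). In males it rose as well, from 6.77 and 0.845 CPM to 98.1 and 70.3, and female buds had at most 0.123 CPM. The gene evm.model.supercontig_4.17 (scf7180000008094, 70845 to 72536, plus strand) rose from 0.259 and 0.898 CPM to 1406 and 994, with 8 counts over the smaller buds and 30364 over the larger (log2 fold change 11.58 ± 0.63, standard error, edgeR adjusted p = 0.000125). Among the falls, evm.TU.contig_27218.1 went from 10.5 and 7.86 CPM to no counts, at least 79.0-fold lower (edgeR adjusted p = 2.23e-05). The gene evm.model.supercontig_17.135 went from 3.05 and 2.92 CPM to none, at least 24.1-fold lower (edgeR adjusted p = 0.00189, and 0.0635 without hermaphrodite 1–6 mm replicate 1). Both falling genes lie on scaffold scf7180000008804, at 228542 to 229231 and at 297119 to 297983, and the first is placed at 2 positions of the assembly. Both were also called lower in larger male buds, while no female library had over 0.205 CPM of the first or any count of the second.

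Named genes were taken from the study's tables of developmental genes, 83 in 10 lists by role. The study had chosen most of them for differences between sexes in these samples, so they are no independent sample of genes. All 83 were tested, and 13 were called, 7 higher and 6 lower in the larger buds (15.7%, beside 4.40% of all tested genes). With adjusted p alone, 34 passed, 14 higher and 20 lower, and 49 did not. These numbers were 10 and 24 without hermaphrodite 1–6 mm replicate 2, 6 and 11 without hermaphrodite 1–6 mm replicate 1, 13 and 21 without hermaphrodite 7–12 mm replicate 2, and 10 and 20 without the replicate block.

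The genes of the tapetum and of pollen had the largest median change of the 10 lists. Of 10 genes, 3 rose, 1 fell and 6 did not pass, and the median log2 fold change was 2.26 against -0.0026 for all tested genes. The shares over all tested genes were 2.89% higher and 1.50% lower. Besides DYT, which fell, the 3 called were AMS isoform 2, CpMS1 and an egg cell secreted protein-like gene, and the last carries the name of a female cell. DYT, a bHLH factor of the early tapetum, stood at 11.1 and 7.18 CPM in the smaller buds and at 0.626 and 0.629 in the larger (172 and 32 counts, then 10 and 5). The sizes did not overlap, as for 45.0% of all tested genes, and the fall was 14.9-fold (log2 fold change -3.90 ± 0.38, edgeR adjusted p = 5.43e-05). It was called under all 11 alternatives.

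TDF1, the MYB factor that follows DYT in Arabidopsis, was already abundant in the smaller buds. It stood at 252 and 321 CPM there and at 649 and 587 in the larger buds, without overlap, as for 45.0% of all tested genes. The difference of 2.18-fold did not pass in the fit of all 12 libraries (edgeR adjusted p = 0.104). It passed only in the 4 hermaphrodite libraries alone (edgeR adjusted p = 1.97e-06), with limma-voom (0.0267) and with thinning (0.038). It did not pass under the other alternatives, among them DESeq2 (adjusted p = 0.818) and edgeR without the block (0.26). The fit of 4 libraries, with 2 sizes and the block, leaves almost nothing to estimate the spread of a single gene. Its p-values rest mainly on the spread shared across genes and are no stronger evidence. AMS, the next bHLH factor, has 2 neighbouring gene models on the same scaffold. AMS isoform 1 stood at 509 and 651 CPM and then at 998 and 653, and it did not pass (log2 fold change 0.51 ± 0.39, edgeR adjusted p = 0.524). AMS isoform 2 rose from 3.82 and 4.49 CPM to 40.2 and 51.1, or 11.5-fold (log2 fold change 3.53 ± 0.41, edgeR adjusted p = 0.00333). Without hermaphrodite 1–6 mm replicate 1 its adjusted p was 0.102.

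CpMS1 (scf7180000009250, 1412751 to 1414936, minus strand) encodes a PHD-finger protein like Arabidopsis MS1, which acts in the late tapetum. It had 2 and 0 counts in the smaller buds and 2789 and 1461 in the larger, which is 175 and 184 CPM. The ratio was 1765 (95% counting interval 488 to 14582), and the edgeR adjusted p was 0.0278. In male buds of 1–6 mm the replicates stood far apart, at 57.0 and 6.06 CPM, and these libraries enter the shared estimate of the spread. With the 4 hermaphrodite libraries alone the edgeR adjusted p was 5.92e-19, a value that rests mainly on the spread shared across genes. CpMS1 kept the call under 5 of 11 alternatives, among them DESeq2 on all 12 libraries (adjusted p = 9.35e-10). The call was lost with limma-voom (0.176), with thinning (0.149) and without any 1 of the 4 hermaphrodite libraries (0.0708 to 0.277).

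Enzymes of the list had positive fold changes with a wide spread. GPAT1, an acyltransferase needed for pollen development in Arabidopsis, stood at 18.0 and 16.6 CPM and then at 87.6 and 162 (edgeR adjusted p = 0.067). The glucan endo-1,3-beta-glucosidase-like gene, of a family of callose-degrading enzymes, stood at 1.04 and 4.49 CPM and then at 34.2 and 88.5 (edgeR adjusted p = 0.0971). Neither was called. For both the sizes did not overlap, as for 45.0% of all tested genes. With DESeq2 on all 12 libraries both were called (adjusted p = 0.000171 and 0.000516). With RLE, limma-voom, thinning or no replicate block neither passed. Both passed in the 4 hermaphrodite libraries alone (edgeR adjusted p = 0.00182 and 1.75e-14), again mainly on the spread shared across genes. In that fit 8 of the 10 genes were called, against 4 in the fit of all 12 libraries, 1 without hermaphrodite 1–6 mm replicate 1 and 2 without hermaphrodite 1–6 mm replicate 2. Callose synthase 10 stood at 45.3 and 39.5 CPM and at 60.3 and 61.3 (edgeR adjusted p = 0.369).

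A pair of scarce genes completed this list, whose grouping rests on gene names and not on where a gene was expressed. The egg cell secreted protein-like gene had no count in the smaller buds and 16 and 10 in the larger, at least 7.20-fold higher (edgeR adjusted p = 0.0139, and 0.0812 without the replicate block), and it lost the call under 6 of 11 alternatives. CpMMD1, which is related to a meiosis gene of Arabidopsis, had 11 and 5 counts and then 53 and 11 (edgeR adjusted p = 0.0896), and its exons overlap 3 other gene models.

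**Figure D2:**
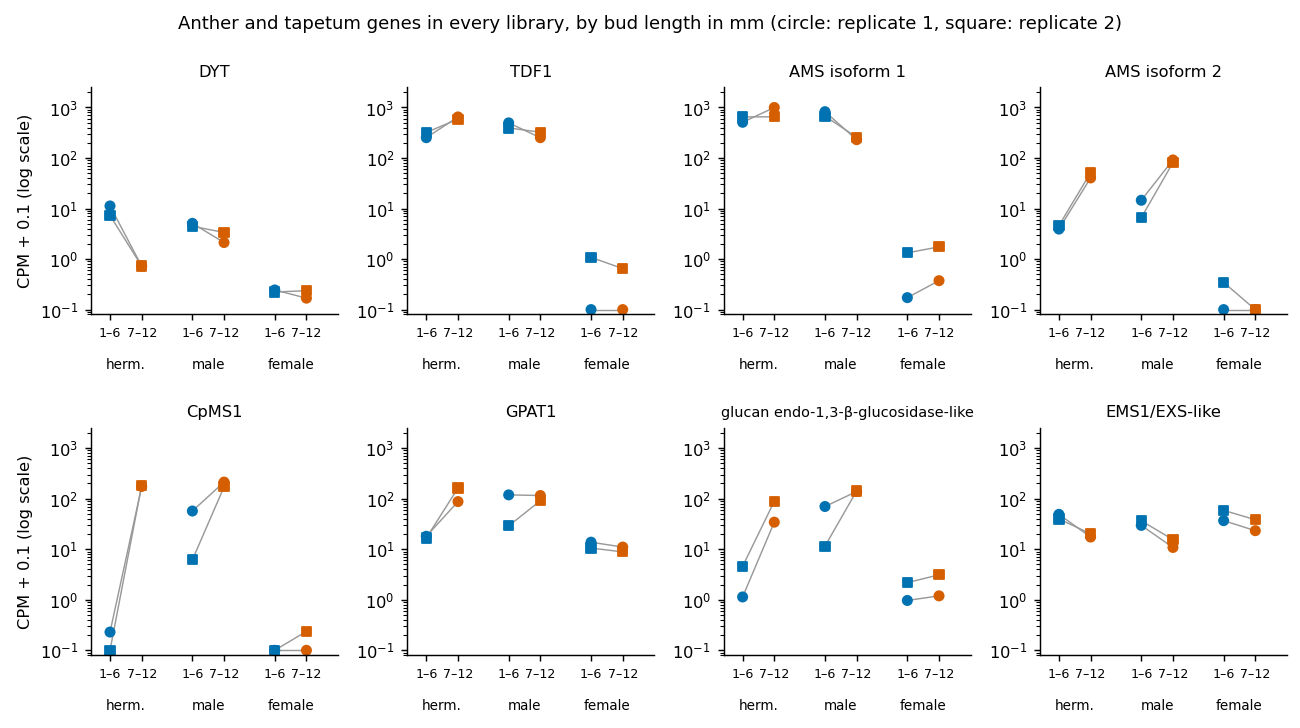
CPM + 0.1 (log scale) of 8 anther and tapetum genes in each library, with bud length in mm on the x axis for each sex and lines joining libraries of the same replicate number. In hermaphrodites DYT falls from 11.1 and 7.18 CPM to 0.626 and 0.629 while CpMS1 rises from almost no counts to 175 and 184 CPM, and female libraries lack DYT, TDF1, AMS and CpMS1 almost wholly.

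Genes of anther cell fate act upstream of the tapetum. Of 5 genes, 1 fell by over 2-fold, 1 rose by less than 2-fold and 3 did not pass, with log2 fold changes of -1.30 to 0.80. Among all tested genes 6.06% passed as higher and 4.72% as lower. The EMS1/EXS-like gene, a receptor kinase that in Arabidopsis sets the number of tapetal cells, fell from 48.9 and 39.7 CPM to 17.3 and 20.1 (log2 fold change -1.30 ± 0.21, edgeR adjusted p = 0.0038, and 0.0591 without hermaphrodite 1–6 mm replicate 1). The gene for its ligand, TPD1, stood at 5.83 and 6.29 CPM and then at 12.4 and 4.40, so that the larger libraries lay on both sides of the smaller ones (adjusted p = 0.414). SPL/NZZ stood at 10.3 and 10.1 CPM and then at 12.4 and 5.66 (adjusted p = 0.862). CLV1, a receptor kinase of the shoot meristem, rose from 11 and 11.9 CPM to 19.0 and 20.5, or 1.75-fold (edgeR adjusted p = 0.0108). RPK2, a receptor-like kinase, stood at 73.1 and 58.1 CPM and at 68.1 and 57.0.

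None of the 6 genes of floral organ identity changed over 2-fold, and 2 passed as higher, beside 6.06% of all tested genes. AP3 isoform 1, a class B gene of petals and stamens, rose from 231 and 253 CPM to 321 and 368, or 1.42-fold (edgeR adjusted p = 0.0139), and the cofactor SEP3 from 170 and 214 to 221 and 314, or 1.38-fold (edgeR adjusted p = 0.0147). For SEP3 the adjusted p without the block was 0.368. The rest of the list did not pass. PI, the other class B gene, stood at 129 and 165 CPM and at 178 and 210 (adjusted p = 0.0882), AP3 isoform 2 at 165 and 173 and at 191 and 189, and AP2 at 147 and 159 and at 145 and 162. The 2 AP3 isoforms may share reads.

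Genes of the cell cycle and of chromosomes fell or did not pass. Of 9 genes, 5 fell and none rose, 1 of the 5 by over 2-fold, and the median log2 fold change was -0.76. Of all tested genes, 4.72% passed as lower and 1.50% were also over 2-fold lower. TOP2, a topoisomerase of replicating and condensing chromosomes, fell from 72.2 and 73.2 CPM to 40.4 and 30.4 (log2 fold change -1.02 ± 0.20, edgeR adjusted p = 0.00954). It lies at the 2-fold limit, and the call was lost under 5 of 11 alternatives, the lowest size being 0.85. Cyclin-D3-1, which drives entry into the cell cycle, fell from 49.0 and 56.8 CPM to 28.3 and 26.4, or 1.92-fold (edgeR adjusted p = 0.0021). Histone H3 isoform 1 fell from 111 and 119 CPM to 64.9 and 59.4 (edgeR adjusted p = 0.00128), and isoform 2, the neighbouring gene with which it may share reads, from 59.4 and 57.5 to 36.9 and 31.3. KIFC1, a kinesin of the spindle, fell from 62.6 and 53.9 CPM to 37.7 and 31.1, or 1.69-fold (edgeR adjusted p = 0.00947, and 0.053 without the block).

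The other 4 genes of this list did not pass. NACK1, a kinesin of cytokinesis, stood at 35.3 and 31.4 CPM and then at 28.4 and 23.1 (adjusted p = 0.14), and Shugoshin-1-like, a protector of centromeric cohesion, at 12.0 and 11.9 and at 11.3 and 7.29. NCAPD3, of the condensin complex, and RAD50, of DNA repair, had log2 fold changes of -0.22 and 0.06. Of the 9 genes, 3 passed without hermaphrodite 1–6 mm replicate 2, 2 without hermaphrodite 1–6 mm replicate 1, 3 without hermaphrodite 7–12 mm replicate 2 and 1 without both libraries with many unaligned reads.

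Regulators of organ growth also fell or did not pass. Of 7 genes, 5 fell and none rose, 2 of them by over 2-fold (median log2 fold change -0.84), beside the same 4.72% and 1.50% of all tested genes. AIL5, an AP2-type factor of the AINTEGUMENTA family, fell from 110 and 87.3 CPM to 46.5 and 45.2 (log2 fold change -1.12 ± 0.11, edgeR adjusted p = 7.1e-05), with a size of -0.94, under the 2-fold limit, without hermaphrodite 1–6 mm replicate 1. Its relative AIL1 was scarcer and fell from 4.54 and 2.47 CPM to 1.38 and 0.88 (log2 fold change -1.66 ± 0.31, edgeR adjusted p = 0.00401). AIL1 lost the call with thinning and without hermaphrodite 1–6 mm replicate 1 (adjusted p = 0.373 and 0.242). ANT itself, which keeps floral primordia dividing in Arabidopsis, has 2 models. The model on supercontig_160 fell from 32.3 and 27.8 CPM to 19.1 and 14.6, or 1.78-fold (edgeR adjusted p = 0.00604). The model on supercontig_129, placed at 2 positions, stood at 24.4 and 15 CPM and at 19.4 and 14.3 (adjusted p = 0.532). WOX4, a homeobox gene of the vascular cambium, fell from 33.4 and 28.7 CPM to 20.1 and 14.3, or 1.79-fold (edgeR adjusted p = 0.00718, and 0.06 without the block). UPBEAT1, a bHLH factor that in Arabidopsis roots limits the zone of division, fell 1.98-fold, from 20.5 and 11 CPM to 8.45 and 7.55 (edgeR adjusted p = 0.00938, and 0.157 without the block). HAIKU2, a receptor-like kinase, was the most abundant of the list and did not pass, at 972 and 612 CPM and at 756 and 639. Of the 7 genes, 1 passed without hermaphrodite 1–6 mm replicate 1 and 3 without hermaphrodite 7–12 mm replicate 2.

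**Figure D3:**
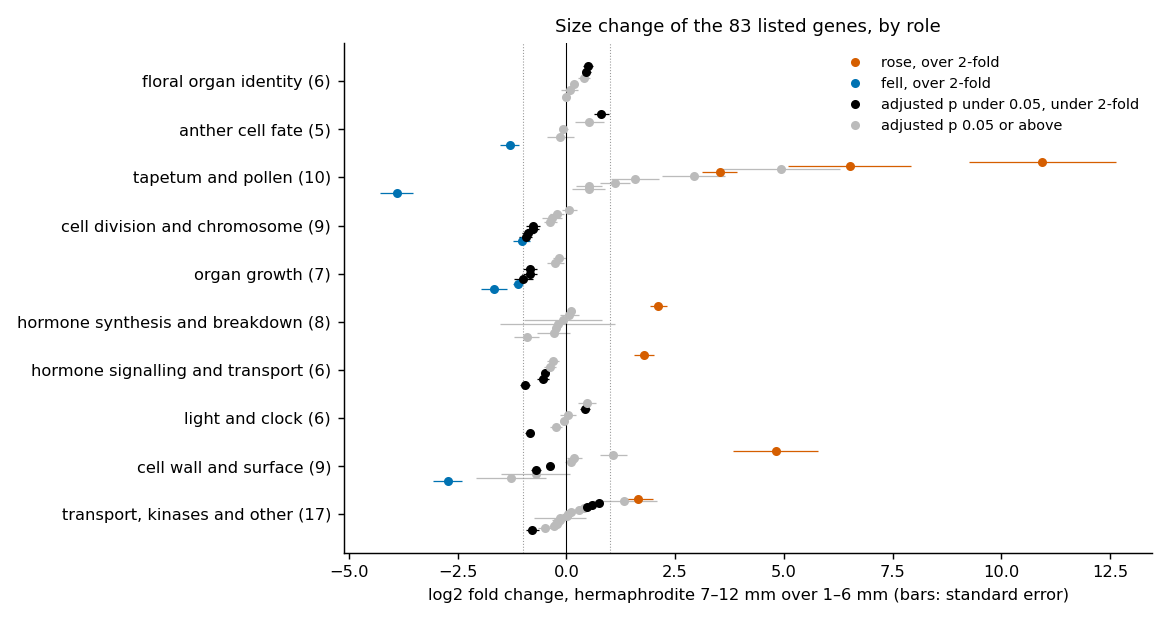
Log2 fold change of hermaphrodite buds of 7–12 mm over 1–6 mm for the 83 listed genes, 1 point a gene with its standard error, grouped by role with the number of genes in brackets, and dotted lines at 2-fold. The 5 genes of cell division and the 5 of organ growth that passed all lie below 0, whereas the tapetum and pollen genes spread from -3.90 to 10.94.

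Of 8 genes of hormone synthesis and breakdown, 1 rose and 7 did not pass, beside 2.89% of all tested genes called higher. The 1 that rose acts on abscisic acid (ABA). ABA 8-hydroxylase 1, a cytochrome P450 that inactivates ABA, rose from 21.1 and 17.5 CPM to 87.4 and 80.1, or 4.33-fold (log2 fold change 2.12 ± 0.20, edgeR adjusted p = 0.000138). The sizes did not overlap, as for 45.0% of all tested genes, and it was called under all 11 alternatives. ABA 8-hydroxylase 4 stood at 18.0 and 11.4 CPM and at 11.3 and 14.5 (adjusted p = 0.734). The other 6 genes of hormone synthesis and breakdown did not pass. Among the brassinosteroid genes, CYP90C1 stood at 205 and 191 CPM and then at 203 and 225, CYP90A1 at 98.2 and 103 and then at 85.0 and 85.3, and CYP85A2 had 2 counts at each size. CYP83B1, a P450 of indole glucosinolate synthesis in Arabidopsis, stood at 58.1 and 53.6 CPM and at 40.2 and 18.9 (edgeR adjusted p = 0.0989).

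Of 6 genes of hormone signalling and transport, 1 rose and 3 fell by less than 2-fold. The shares of all tested genes that passed were 6.06% higher and 4.72% lower. XBAT32/33, an E3 ubiquitin ligase that in Arabidopsis acts in lateral root formation and ethylene synthesis, rose from 10.6 and 8.98 CPM to 41.0 and 27.4, or 3.47-fold (log2 fold change 1.79 ± 0.23, edgeR adjusted p = 0.000469), under all 11 alternatives. PINOID 2, a kinase that directs auxin carriers, fell 1.94-fold, from 50.6 and 55.7 CPM to 27.8 and 26.5 (edgeR adjusted p = 0.000169). The DELLA gene GAIP-B-like, a repressor of gibberellin responses, fell 1.40-fold (edgeR adjusted p = 0.00447) and the VAN3-binding protein gene, of vein patterning, 1.44-fold (edgeR adjusted p = 0.0282), and both lost the test without the block (0.0907 and 0.0909). The auxin response factor ARF3 and NPY1 did not pass, with log2 fold changes of -0.38 and -0.30.

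Of 6 genes of light and clock, 1 rose and 1 fell, both by less than 2-fold, beside 6.06% and 4.72% of all tested genes. HY5, a bZIP factor of light responses, fell from 52.4 and 62.2 CPM to 32.2 and 31.1, or 1.79-fold (edgeR adjusted p = 0.000264). GIGANTEA-like, of the circadian clock, rose 1.34-fold (edgeR adjusted p = 0.0394, and 0.167 without the block), and its neighbouring model GIGANTEA did not pass at 1.39-fold. Collection time of the buds is not given in the sources used here.

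Of 9 genes of the cell wall and surface, 1 rose and 3 fell, 1 of them by over 2-fold. Among all tested genes 6.06% passed as higher and 4.72% as lower. COMITIN fell from 22.6 and 24.2 CPM to 3.38 and 3.77, or 6.61-fold (log2 fold change -2.72 ± 0.34, edgeR adjusted p = 0.000506), under all 11 alternatives, while its neighbour EP1-like/COMITIN stood at 16.3 and 18.4 and at 18.6 and 20.2 (adjusted p = 0.589). The xylan synthase gene fell 1.62-fold (edgeR adjusted p = 0.00205, and 0.107 without the block), from 70.5 and 57.7 CPM to 45.4 and 33.7. CSLD1, a cellulose synthase-like gene that in Arabidopsis acts in pollen tubes, had 0 and 1 counts in the smaller buds and 28 and 13 in the larger. The ratio was 34.1 (95% counting interval 5.78 to 1378), and the edgeR adjusted p was 0.00848, and 0.114 without the block. Its exons overlap 4 other gene models on the same strand. The DUF642 gene fell from 127 and 122 CPM to 107 and 86.0 (edgeR adjusted p = 0.0298, and 0.18 without the block).

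Of the remaining 17 genes of transport, kinases and other roles, 4 rose, 1 fell and 12 did not pass. Beside them, 6.06% of all tested genes passed as higher and 4.72% as lower. The probable kinase rose from 2.40 and 1.35 CPM to 7.01 and 5.53, or 3.13-fold (edgeR adjusted p = 0.00869), and lost the call under 6 of 11 alternatives. YSL3, a carrier of metal chelates, rose from 70.0 and 67.3 CPM to 124 and 108, or 1.68-fold (edgeR adjusted p = 0.000365). SLC35D, a nucleotide sugar carrier, rose 1.52-fold and the pentatricopeptide repeat gene 1.40-fold (edgeR adjusted p = 0.0256 and 0.026), and neither passed without the block (0.0609 and 0.192). Spinster homolog 3 fell 1.72-fold, from 21.8 and 20.4 CPM to 11.1 and 14.1 (edgeR adjusted p = 0.00504).

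This change was set beside that in male and female buds of the same lengths. Buds of equal length need not be at the same stage in each sex. A shift in stage therefore cannot be told apart from sex and cultivar in what follows. Of the 559 rising genes, 282 were also called higher in larger male buds, 50.4% of the hermaphrodite list and 39.1% of the 722 genes higher in males (background 3.73%), and 21 were called lower there. Of the 291 falling genes, 156 were also called lower in males, 53.6% of the list and 22.9% of the 681 in males (background 3.52%), and 1 was called higher. In females, 55 of the rising genes were also called higher (9.84% of the list, 25.3% of 217, background 1.12%) and 64 of the falling genes were also called lower (21.99% of the list, 15.4% of 415, background 2.15%), with 9 called the opposite way in each direction. The median log2 fold change of the 559 rising genes was 1.24 in males and 0.16 in females, and that of the 291 falling genes was -1.20 and -0.24. Across the 19339 genes, the fold changes of hermaphrodites and males correlated with r = 0.607 and those of hermaphrodites and females with r = 0.126. These are across genes, which are not independent replicates. The sexes share no library but share the platforms and the fit.

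The size change itself differed from that in males for 443 genes (2.29%), 301 more positive (1.56%) and 142 more negative (0.734%) in hermaphrodites by an edgeR interaction term. This count was 99, 51 and 48 in the 2 directions, without the replicate block. It was 75 without hermaphrodite 1–6 mm replicate 1, 259 without hermaphrodite 7–12 mm replicate 1, 134 and 276 without male 1–6 mm replicate 1 or 2, and 205 without male 7–12 mm replicate 1. Without hermaphrodite 1–6 mm replicate 2 it was 298. Against females, 847 genes differed (4.38%), 402 more positive (2.08%) and 445 more negative (2.30%) in hermaphrodites, and 463 without the block (245 and 218). That count was 413 without hermaphrodite 1–6 mm replicate 1, 330 and 532 without female 1–6 or 7–12 mm replicate 1, 1364 without female 7–12 mm replicate 2, and 604 without hermaphrodite 1–6 mm replicate 2. With DESeq2, 453 of 764 genes were more positive in hermaphrodites, 59.3% against 47.5%.

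Of the 83 listed genes, 11 differed from males in their size change, 10 more positive and 1 more negative in hermaphrodites. Over all tested genes the shares were 1.56% and 0.734%. The study had chosen most of the 83 for differences between sexes in these samples. DYT was the 1 more negative. It stood at 4.99 and 4.37 CPM in male buds of 1–6 mm and at 2.03 and 3.26 at 7–12 mm. The male change was thus -0.89 on the log2 scale, and the hermaphrodite change lay 3.01 ± 0.52 below it (edgeR adjusted p = 0.0092, and 0.0436 without the block). This call was lost under 3 of 14 alternatives. ABA 8-hydroxylase 1 went from 90.2 and 54.2 CPM to 45.8 and 54.9 in males and from 14.8 and 12.4 to 6.02 and 3.97 in females. Its change in hermaphrodites was 2.63 ± 0.27 above that in males (edgeR adjusted p = 0.0017) and 3.53 ± 0.32 above that in females (edgeR adjusted p = 0.000421), and both held under all 14 alternatives.

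In males CYP83B1 went from 63.3 and 62.3 CPM to 2.49 and 4.89, and the hermaphrodite change was 3.31 ± 0.49 above it (edgeR adjusted p = 0.0149, and 0.0385 without the block). The call for CYP83B1 was lost under 5 of 14 alternatives. The other 8 were TPD1, CpMMD1, NACK1, Shugoshin-1-like, ANT on supercontig_160, WOX4, XBAT32/33 and the xylan synthase gene, with differences of 1.07 to 3.72 and adjusted p of 0.0041 to 0.0436. All 8 lost the call without the block (adjusted p of 0.0803 to 0.265).

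Against females, 14 of the 83 differed, 3 more positive and 11 more negative, beside 2.08% and 2.30% of all tested genes. The histones, Cyclin-D3-1, KIFC1 and TOP2 fell in hermaphrodites, while the fitted change in females was positive for each. Histone H3 isoform 2 went from 47.8 and 55.4 CPM to 119 and 88.7 in females (log2 fold change 1.01), and the hermaphrodite change lay 1.78 ± 0.20 below it (edgeR adjusted p = 0.000526). TOP2 went from 40.4 and 54.3 CPM to 92.0 and 63.0 in females, and the hermaphrodite change lay 1.74 ± 0.28 below it (edgeR adjusted p = 0.00593, and 0.0181 without the block). Over the whole list of 9 cell division genes, 8 fell and none rose in males (adjusted p alone, lower background 8.31%), 5 fell and none rose in hermaphrodites (lower background 4.72%), and 4 rose and none fell in females (higher background 6.09%), with median log2 fold changes of -1.52, -0.76 and 0.72. Between hermaphrodites and males, NACK1 and Shugoshin-1-like were the only genes of this list whose difference was called, and neither held without the block.

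**Figure D4:**
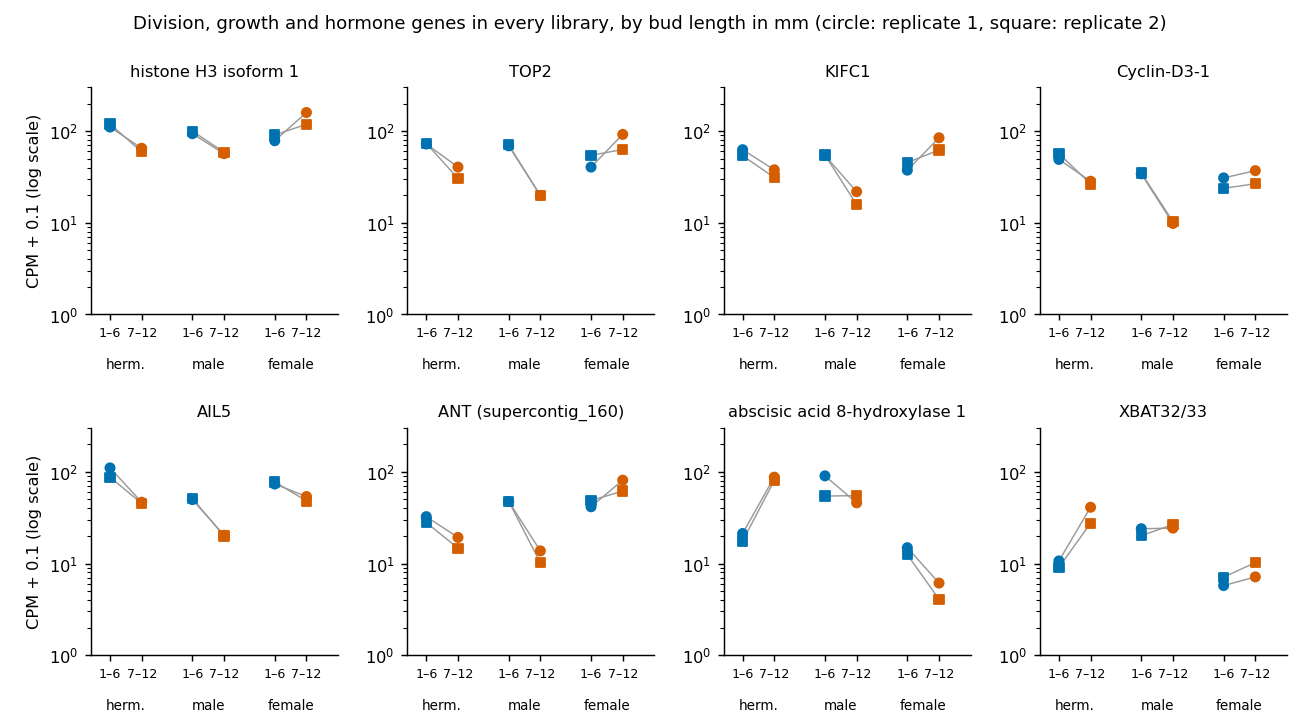
CPM + 0.1 (log scale) of 8 genes of division, growth and hormone pathways in each library, with bud length in mm on the x axis for each sex and lines joining libraries of the same replicate number. In hermaphrodites TOP2 falls from 72.2 and 73.2 CPM to 40.4 and 30.4 while in females it goes from 40.4 and 54.3 to 92.0 and 63.0, and ABA 8-hydroxylase 1 rises from 21.1 and 17.5 CPM to 87.4 and 80.1 in hermaphrodites.

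**Figure D5:**
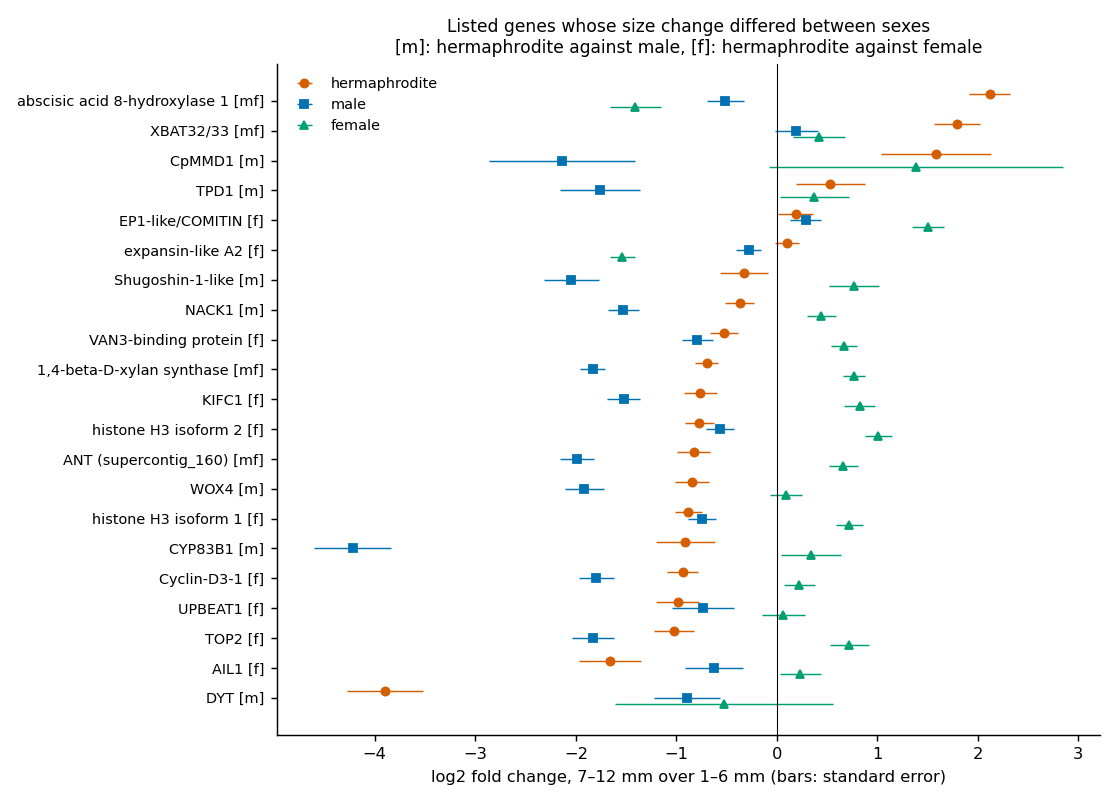
Log2 fold change of 7–12 mm over 1–6 mm with its standard error in hermaphrodites, males and females for the listed genes whose size change differed from that in males (m) or females (f). The change in DYT is -3.90 in hermaphrodites and -0.89 in males, and for the cell division genes the hermaphrodite values lie between 0 and -1.02 while the female values are positive.

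Some of the called genes were neighbours on the assembly. Of 532 rising genes placed once on the assembly, 87 (16.4%) lay directly next to another rising gene within 50000 bases, in 42 runs of 2 or 3 genes, and 32 of the runs had all genes on 1 strand. By the same rule, 4.43% of the 18833 tested genes placed once lay next to a rising gene. Of 279 falling genes, 16 (5.73%) lay next to another falling gene, in 8 runs of 2, and 2.21% of the tested genes lay next to a falling gene. The lists differ in length and these shares were not tested. The longest runs held 3 genes each, on scaffolds scf7180000008663 (516362 to 531101), scf7180000009127 (1632283 to 1666944) and scf7180000009145 (1553945 to 1582842). A read with several alignments was counted for each of them. Of the 850 called genes, 45 share exon sequence with another gene model on the same strand and 39 are placed at more than 1 position, and with overlapping gene models left out the count was 789.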

How the data were processed

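Flower buds came from plants grown at a research station in Hawaii, and poly(A) RNA was sequenced from strand-specific libraries. The authors used Trimmomatic 0.36 for trimming, HISAT2 2.0.5 for alignment against a PacBio-based papaya assembly and featureCounts 1.5.2 for counting over coding exons placed with GMAP, without untranslated regions. The authors deposited raw whole-number counts per gene, not normalized, and per the file headers all 12 libraries used strand setting 2, counted multi-mapping reads and did not use the option for read pairs. For the paired-end replicate 2, mates were therefore counted singly under a setting whose fit to both mates was not tested. The study's own table gives every replicate 2 library a lower share of assigned reads than any replicate 1 library. The reason for that was not tested.

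Counts were analysed with edgeR 4.0.16 (R 4.3.3). Genes were kept by filterByExpr (minimum count 10), libraries scaled by TMM, and 1 coefficient per group plus the replicate number as a block fitted over the 12 libraries (robust quasi-likelihood fit and F test). Libraries of the same replicate number deviated together: deviations from group means correlated with r = 0.734 to 0.839 over 15 pairs of groups. The platform changes with that number, as do read layout and biological replicate, and these cannot be told apart. The study's methods name no block, and that fit is an alternative. A gene counted as called when its Benjamini-Hochberg adjusted p was below 0.05 and its change exceeded 2-fold. Standard errors were taken as the log2 fold change divided by the root of F. Folds against a group without counts use a floor of 3 counts over the group, and 95% counting intervals are exact and cover counting error only. An exact permutation test of 2 against 2 libraries cannot go below a p of 0.333, so p-values rest on the spread shared across genes and groups. The steps were also run on simulated counts with known changes. These had a shift shared by all replicate 2 libraries and a spread estimated with the block, so they cannot test the choice of the block. Alternatives were other filters, RLE, DESeq2 1.42.0, limma-voom (limma 3.58.1), no block, no fold limit, thinning to 4520811 counts, hermaphrodite libraries alone, and leaving out overlapping gene models, both libraries with many unaligned reads, or each library.

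The genes named are the 83 in the study's tables, which pair them with IDs, the 2 largest rises and 2 largest falls with 1 direction in both platforms and no overlap, and evm.model.supercontig_2112.2. The genes, lists and comparison were chosen with earlier results of these data known. No sequence is shown, and no names other than the study's were used.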

Additional observations from a re-analysis of the deposited data

Results flagged for a closer look

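For 21 of the listed genes the size change in hermaphrodites differed from that in males or females by an interaction term (edgeR's quasi-likelihood test, adjusted p under 0.05 and a difference over 2-fold). Over all tested genes it differed from males for 2.29% and from females for 4.38%. Cultivar, sex and the stage reached at a given length cannot be told apart in these differences. On the log2 scale, the change in hermaphrodites minus that in males was 2.29 for TPD1, -3.01 for DYT, 3.72 for CpMMD1, 1.16 for NACK1, 1.72 for Shugoshin-1-like, 1.16 for ANT on supercontig_160, 1.07 for WOX4, 2.63 for ABA 8-hydroxylase 1, 3.31 for CYP83B1, 1.60 for XBAT32/33 and 1.14 for the xylan synthase gene. The change in hermaphrodites minus that in females was -1.60 for histone H3 isoform 1, -1.78 for isoform 2, -1.16 for Cyclin-D3-1, -1.58 for KIFC1, -1.74 for TOP2, -1.49 for ANT on supercontig_160, -1.90 for AIL1 and -1.05 for UPBEAT1. It was 3.53 for ABA 8-hydroxylase 1, -1.19 for the VAN3-binding protein gene, 1.37 for XBAT32/33, 1.63 for expansin-like A2, -1.46 for the xylan synthase gene and -1.31 for EP1-like/COMITIN.

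Of these 25 differences, 9 were called under all 14 alternatives, those of ABA 8-hydroxylase 1 in both comparisons and, against females, of both histones, KIFC1, ANT on supercontig_160, expansin-like A2, the xylan synthase gene and EP1-like/COMITIN. The difference of UPBEAT1 was called under 3 of 14, and those of CpMMD1 and WOX4 under 4. No difference changed sign. Groups of 2 libraries are too small for a test of single libraries that stand apart.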

How the results depend on the processing

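The count of 850 genes stayed within 1.5 times of its value with other filters, RLE, DESeq2, limma-voom, the hermaphrodite libraries alone (980), no replicate block (589, of which 579 were among the 850), without overlapping models and without both libraries with many unaligned reads (585). It was 565 with thinning, 2084 without a fold limit, and 264 to 724 without each hermaphrodite library. The difference from males was called for 675 genes without a fold limit, 99 without the block, 246 with thinning, 146 without both libraries with many unaligned reads, and 75 to 581 without each library. The difference from females was called for 1647, 463, 503 and 390 genes under the same settings, and for 330 to 1364 without each library. Genes on at 7–12 mm numbered 51 with at least 20 counts, 48 with at least 5 counts and 0 at the other size, and 116 to 270 without each library, an alternative chosen after seeing the data. Genes off numbered 1 with at least 20 counts, 19 with thinning and 9 to 25 without each library. Why these counts move was not tested, beyond that fewer libraries or counts were used.

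Of the 17 named genes called, all 17 kept the call with RLE, DESeq2 and the hermaphrodite libraries alone, 16 with limma-voom, 14 without the replicate block, 11 with thinning and 6 without hermaphrodite 1–6 mm replicate 1. None changed direction. The alternatives for the lists in the hermaphrodite libraries alone, with thinning or without both libraries with many unaligned reads, and those for the interaction terms of listed genes, were also chosen after seeing the data. Depth limits what can be said of CSLD1, the egg cell gene, CpMMD1, CYP85A2 and other genes with few counts, and 2 libraries a size limit all of it.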
